A study of Mus musculus with 5 samples.

Results

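The 8 genes described here encode receptors for the constant part of antibodies, or a chain that such receptors share: Fcgr1, Fcgr2b, Fcgr3, Fcgr4, Fcer1g, Fcer1a, Fcer2a and Fcmr. They were taken by name from the 28692 genes counted in single bone marrow cells, and all 8 were found. Levels were read in every barcode that held at least 500 UMIs (unique molecular identifiers, each marking 1 captured transcript), by cell type and by day. The marrow came from 5 mice of the C57BL/6J strain, 8 weeks old and not irradiated, each of which had received 1000 BCR-ABL1 pre-B ALL cells (a mouse B-cell leukaemia driven by the BCR-ABL1 fusion kinase) through the tail vein. The first mouse was killed directly after the injection (Day 0), and the others followed on Day 3, Day 6, Day 9 and Day 12. All 5 mice therefore carried the injected cells, there was 1 mouse per day, and no untreated marrow was among the samples. Marrow plugs and enzyme-digested crushed bone were pooled, red blood cells were lysed, and the cells were frozen before 10x Genomics 3' v2 sequencing, so cells that do not survive these steps are not represented.

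Fc receptors let a cell react to antibody that has bound its target. The activating receptors of myeloid and natural killer (NK) cells have almost no signalling tail of their own and rely on the common gamma chain encoded by Fcer1g, whose activation motif recruits the kinase Syk, whereas Fcgr2b carries an inhibitory motif that recruits phosphatases such as SHIP1. Fcgr1 encodes the high-affinity IgG receptor, Fcgr3 and Fcgr4 encode IgG receptors that bind antibody complexes, Fcer1a encodes the IgE-binding chain of mast cells and basophils, Fcer2a encodes the low-affinity IgE receptor CD23 of B cells, and Fcmr encodes a receptor for IgM.

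In the GENCODE vM21 annotation of GRCm38, whose gene identifiers match those of the files, 6 of the 8 genes lie on chromosome 1. Fcgr2b (chr1:170958617-170976547, minus strand), Fcgr4 (chr1:171018920-171029761, plus strand), Fcgr3 (chr1:171051174-171064935, minus strand) and Fcer1g (chr1:171229572-171234365, minus strand) follow each other. Fcer1a (chr1:173221284-173227214, minus strand) and Fcmr (chr1:130865669-130880791, plus strand) stand apart from them on the same chromosome, while Fcgr1 (chr3:96282909-96293969, minus strand) and Fcer2a (chr8:3681737-3694175, minus strand) lie on other chromosomes. Fcgr2b overlaps an antisense gene, Gm38204, and whether the counting used strand is not given in the sources used here. Fcgr2b and Fcgr3 encode closely similar antibody-binding parts, and how reads that match both were assigned was not tested.

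RefSeq promoter windows in GRCm38.p6 are shown for the 3 activating IgG receptors of myeloid cells and for Fcmr, because the comparisons below turn on these genes and each window held the motif marked here. Each window is the 250 bases before the transcription start, 5′ to 3′ on the strand of the gene, and capitals mark TTCCTC, the reverse of the PU.1 core motif GAGGAA, which was searched on both strands. The windows are chr3:96293970-96294219 for Fcgr1, chr1:171059404-171059653 for Fcgr3 (inside the longer annotated span of that gene), chr1:171018676-171018925 for Fcgr4 and chr1:130865527-130865776 for Fcmr. The motif began 55, 6, 22 and 36 bases before the start, respectively.
Fcgr1: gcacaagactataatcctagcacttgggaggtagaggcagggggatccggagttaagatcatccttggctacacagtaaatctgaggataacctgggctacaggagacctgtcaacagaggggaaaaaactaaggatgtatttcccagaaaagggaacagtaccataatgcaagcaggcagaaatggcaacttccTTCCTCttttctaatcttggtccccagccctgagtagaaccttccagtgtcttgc
Fcgr3: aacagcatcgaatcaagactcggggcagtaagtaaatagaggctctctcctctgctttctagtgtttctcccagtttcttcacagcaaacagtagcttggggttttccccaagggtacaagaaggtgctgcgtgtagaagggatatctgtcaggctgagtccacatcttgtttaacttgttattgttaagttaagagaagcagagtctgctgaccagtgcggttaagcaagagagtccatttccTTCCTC
Fcgr4: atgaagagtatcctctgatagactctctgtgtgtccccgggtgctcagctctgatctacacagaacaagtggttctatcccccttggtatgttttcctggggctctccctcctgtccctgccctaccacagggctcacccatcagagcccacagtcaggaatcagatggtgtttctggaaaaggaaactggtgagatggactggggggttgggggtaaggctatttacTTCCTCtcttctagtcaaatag
Fcmr: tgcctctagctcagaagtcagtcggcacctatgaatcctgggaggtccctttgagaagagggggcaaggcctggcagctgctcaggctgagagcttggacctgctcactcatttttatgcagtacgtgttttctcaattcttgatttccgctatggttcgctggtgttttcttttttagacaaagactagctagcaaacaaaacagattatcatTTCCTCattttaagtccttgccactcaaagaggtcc
The motif was found in 5 of the 8 windows (these 4 and Fcer1a), in none of those of Fcgr2b, Fcer1g and Fcer2a, and in 23.1% of the 27025 promoter windows of all genes. The GATA core AGATAA was found for Fcer1a alone, against 10.3% of all windows, and the octamer ATTTGCAT for none of the 8, against 1.61%. A match describes letters in a window and says nothing of binding.

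The libraries held 33425695 to 43554233 UMIs and 5474 to 7604 cells each (32135 in all), with a median of 2874 to 3786 UMIs per cell. Of 31551 distinct cell barcodes, 574 were found in more than 1 library. The cells were clustered without the Fc receptor genes and their signalling partners, and 28858 cells were named from marker genes, each name carrying "-like". Every named cluster showed at least 5 of its own markers, 2547 cells stayed unnamed, and 730 more were left unnamed because most cells of their clusters scored as doublets. The classes with at least 20 cells in at least 3 libraries were neutrophil-like (16889 cells), monocyte-like (3423), mature B-like (2257), T-like (1868), pro/pre-B-like (1461), GMP-like (granulocyte and monocyte progenitors, 953), plasmacytoid dendritic-like (887), NK-like (385), early progenitor-like (341) and nonclassical monocyte-like (116). Leukaemia cells could not be told apart from normal B precursors in these counts. Neutrophil RNA was present everywhere: the 16 neutrophil markers summed to 4859 to 5393 per 10000 UMIs in neutrophil-like cells, 675 to 1153 in GMP-like cells and 124 to 489 in the other 8 classes, so the level of each receptor was set beside the level expected from free RNA in barcodes of at most 100 UMIs.

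A level here is the summed count of a gene per 10000 UMIs of a class in 1 library, and means are given ± SD over libraries. These 3' counts do not scale with transcript length and capture differs between genes, so levels were compared between classes and not between receptors. At a mean of 0.1 or more, 36 of the 80 combinations of receptor and class were filled. Fcer1g and Fcgr3 reached this level in all 10 classes, Fcgr2b did so in all but T-like cells, and Fcgr1 had its highest mean in monocyte-like cells. Fcgr4, Fcer2a and Fcmr each had 1 of the 10 classes far above the rest, and Fcer1a had its highest level in basophil or mast-like cells, which are outside the 10.

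**Figure D1:**
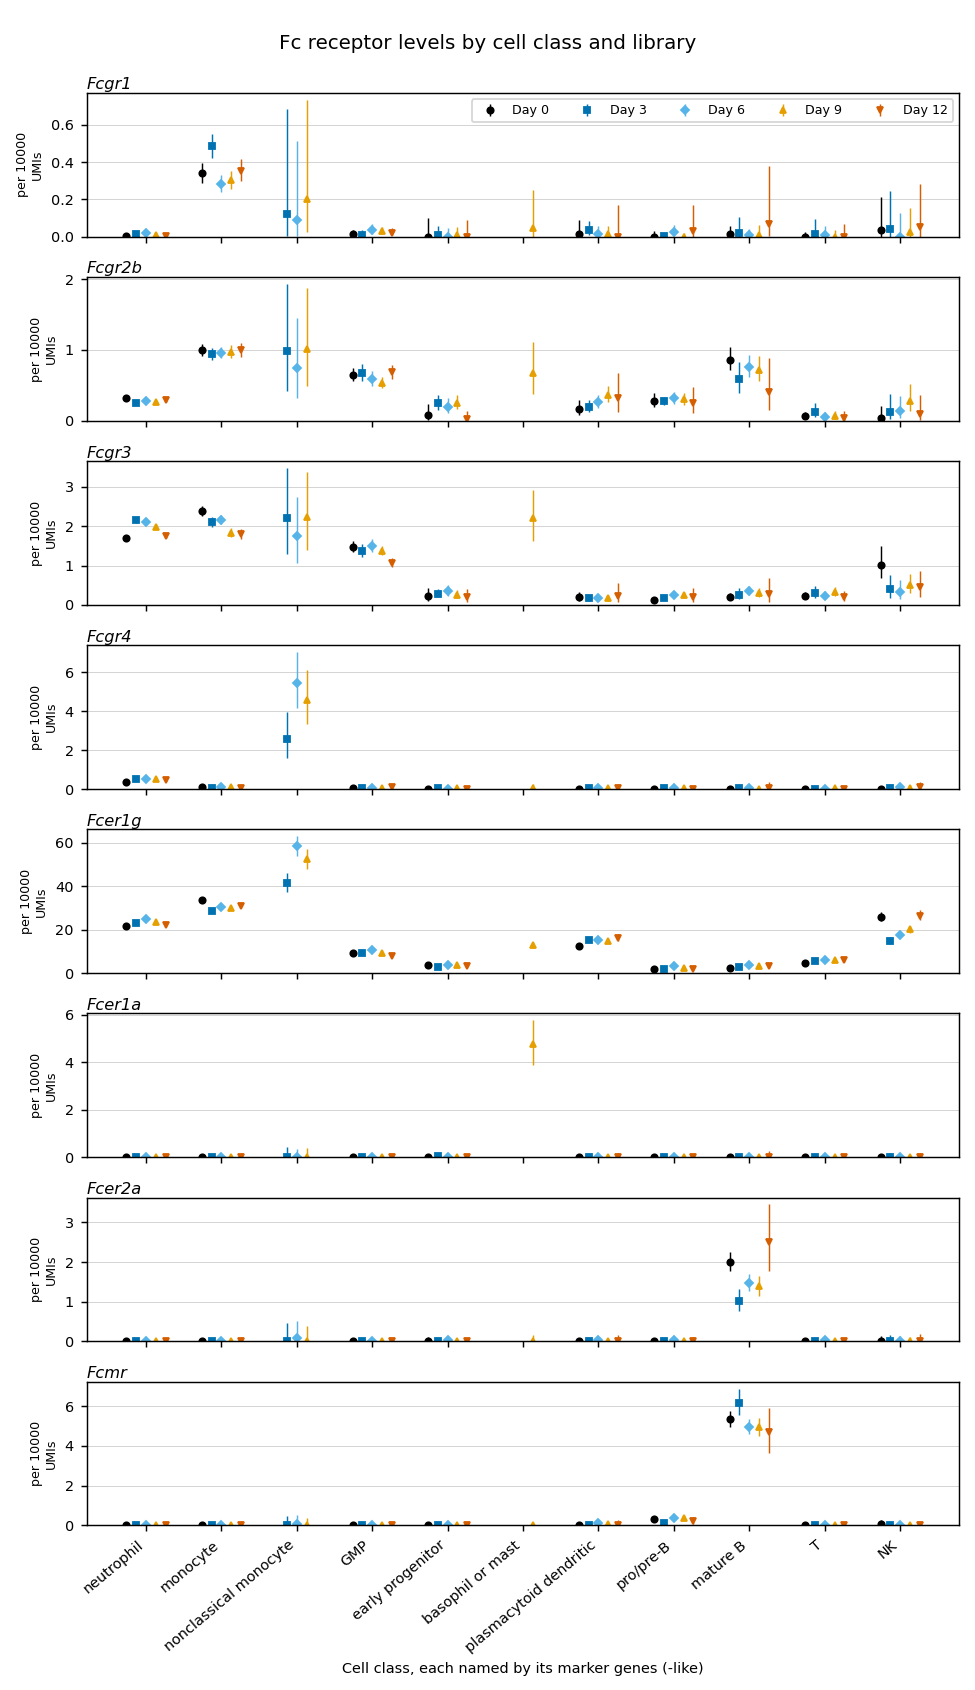
Counts per 10000 UMIs of the 8 Fc receptor genes (1 panel each, each on its own scale from 0) in 11 cell classes, with 1 point per library of at least 20 cells and exact Poisson 95% intervals that cover counting error only. Fcgr4 stood highest in nonclassical monocyte-like cells at 2.57 to 5.45, Fcer1a in the basophil or mast-like cells of Day 9 at 4.77, and Fcer2a and Fcmr in mature B-like cells.

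The common gamma chain Fcer1g marked the myeloid and NK classes. Its level was 50.7 ± 8.57 (n = 3 libraries) in nonclassical monocyte-like cells, 30.6 ± 1.79 (n = 5) in monocyte-like cells, 23.2 ± 1.31 in neutrophil-like cells and 21.0 ± 5.05 in NK-like cells. Plasmacytoid dendritic-like cells followed at 14.9 ± 1.34, GMP-like cells at 9.24 ± 0.960, T-like cells at 5.66 ± 0.584 and early progenitor-like cells at 3.49 ± 0.368. Neighbours in this order had separate ranges over libraries, except that NK-like cells overlapped both of their neighbours and that early progenitor-like, mature B-like and pro/pre-B-like cells overlapped in turn. Mature B-like (3.19 ± 0.576) and pro/pre-B-like cells (2.355 ± 0.493) stood at the level of free RNA, with medians of 1.06 and 0.999 times the expected level and a UMI in 42.9% and 60.4% of cells all the same. T-like cells stood at 2.37 times and NK-like cells at 7.82 times that level.

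Within the T-like cells, 2 clusters differed in Fcer1g. In the cluster led by Trdc, Ccl5 and Cd160, genes of gamma-delta and cytotoxic T cells, the level was 7.02 to 9.59 over the 5 libraries, and in the cluster led by Dapl1, Cd8b1 and Cd8a it was 2.31 to 3.29. The first exceeded the second in 5 of 5 libraries, by 2.39 to 3.04 times, given as a description because clusters were formed from the same cells. The Trdc cluster showed 8 T cell markers and also 6 NK cell markers, whose part in the result was not tested.

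NK-like cells exceeded T-like cells in Fcer1g and in Fcgr3, the IgG receptor known as CD16 on mouse NK cells. Fcer1g was 25.9, 15.01, 17.6, 20.1 and 26.5 per 10000 UMIs in NK-like cells of Days 0, 3, 6, 9 and 12 against 4.68, 5.60, 6.03, 6.12 and 5.88 in T-like cells, with no overlap. Its log2 fold change was 1.61 ± 0.10 (SE; adjusted p = 3.34e-18, edgeR's quasi-likelihood test with the library as a block). For Fcgr3, the NK-like levels were 1.03, 0.395, 0.341, 0.504 and 0.457 and the T-like levels were 0.236, 0.312, 0.237, 0.326 and 0.191. NK-like cells were higher in 5 of 5 libraries, with a log2 fold change of 0.82 ± 0.25 (adjusted p = 0.0125, edgeR). Without Day 0 the Fcgr3 value fell to 0.37 (adjusted p = 0.372, edgeR), so this call rested on that library, and DESeq2 gave an adjusted p of 0.213. Both receptors that could be tested were called, against 24.4% of 5424 genes (12.1% higher in NK-like cells). Higher genes made up 654 of 1321 calls with TMM factors and 1405 of 1789 with library totals alone. Among 6 associated chains and adapters the 1 that rose was Tyrobp, the DAP12 adapter of NK receptors (28.2 against 6.33; log2 fold change 1.89 ± 0.09), while Cd247, the zeta chain of the T cell receptor (-0.58 ± 0.16), and Hcst, the DAP10 adapter (-0.50 ± 0.10), fell. Of the rest 2 did not pass and 1 could not be tested. Of 18 activating genes 3 were higher (Lat2, Plcg2 and Syk) and 3 lower (Plcg1, Lat and Zap70). Another 8 did not pass and 4 could not be tested. All 7 inhibitory genes did not pass.

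Fcgr4 set the nonclassical monocyte-like cells apart, and Fcgr1 was counted mainly in the monocyte-like cells. Fcgr1 was 0.339, 0.485, 0.283, 0.302 and 0.354 in monocyte-like cells of Days 0, 3, 6, 9 and 12. It was 0.123, 0.0924 and 0.203 in nonclassical monocyte-like cells of Days 3, 6 and 9, on 4 UMIs in all. No other class of the 10 exceeded a mean of 0.0321, and neutrophil-like cells held 80 Fcgr1 UMIs where free RNA would give 75.5. Fcgr4 was 2.57, 5.45 and 4.57 in nonclassical monocyte-like cells of Days 3, 6 and 9 against 0.0591, 0.0904 and 0.101 in monocyte-like cells of the same mice. The groups did not overlap, and a UMI of Fcgr4 was seen in 36.4% to 71.4% of nonclassical monocyte-like cells of each library. The level was 72.2 times the one expected from free RNA in the median library.

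In the test between these monocyte classes, Fcgr4 and Fcer1g rose in the nonclassical cells. The log2 fold change was 5.51 ± 0.27 for Fcgr4 (adjusted p = 9.81e-91, edgeR) and 0.63 ± 0.10 for Fcer1g (adjusted p = 7.43e-09). So small a p rests on a spread estimated across all genes, since only 3 libraries held 20 cells of both classes. Fcgr1 (-1.46 ± 0.67, adjusted p = 0.147), Fcgr2b (-0.23 ± 0.30, adjusted p = 0.745) and Fcgr3 (-0.13 ± 0.20, adjusted p = 0.792) did not pass in edgeR. That made 2 of 5 tested receptors, against 13.4% of 9097 genes (4.28% higher, 9.17% lower). The median log2 fold change of all genes here was -0.28, and higher genes made up 389 of 1223 calls, or 469 of 1078 with RLE scaling. Without Day 3, Day 6 or Day 9 the calls numbered 555, 734 and 754. The Src-family kinases Fgr (1.94 ± 0.19) and Fyn (1.79 ± 0.57), the adapter Lcp2 (0.90 ± 0.27) and Csk, which restrains those kinases (0.98 ± 0.22), also rose. Most listed genes did not pass: of 18 activating genes 3 were higher, 12 did not pass and 3 could not be tested. Of 7 inhibitory genes 1 was higher and 6 did not pass. Of 6 associated chains and adapters 1 was higher, Hcst (0.95 ± 0.23), 3 did not pass and 2 could not be tested.

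Monocyte-like and neutrophil-like cells both held Fcgr3, Fcer1g and Fcgr2b, with Fcgr2b higher in monocyte-like cells, and they parted most in Fcgr1 and Fcgr4. Fcgr1 was higher in monocyte-like cells in 5 of 5 libraries, with a log2 fold change of 3.89 ± 0.20 (adjusted p = 1.32e-10, edgeR). Fcgr4 was 0.364, 0.538, 0.498, 0.542 and 0.467 in neutrophil-like cells of Days 0 to 12 against 0.0832, 0.0591, 0.0904, 0.101 and 0.0625 in monocyte-like cells. It was lower in the monocyte-like cells in 5 of 5 libraries, with a log2 fold change of -3.74 ± 0.12 (adjusted p = 8.45e-13, edgeR). Fcgr2b was 0.997, 0.941, 0.961, 0.976 and 0.998 in monocyte-like cells and 0.326, 0.258, 0.275, 0.270 and 0.291 in neutrophil-like cells, a gap with no overlap (log2 fold change 0.61 ± 0.07, adjusted p = 1.61e-06, edgeR). The sizes of these fold changes for Fcgr1, Fcgr4 and Fcgr2b were fitted with TMM factors and differ from the gaps between the printed levels. They depend on the scaling, since with library totals alone the median of all genes moved to 1.17.

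For Fcgr3 and Fcer1g the direction depended on the scaling. Fcgr3 was 2.39, 2.11, 2.17, 1.83 and 1.80 per 10000 UMIs in monocyte-like cells of Days 0, 3, 6, 9 and 12 and 1.71, 2.16, 2.12, 1.99 and 1.76 in neutrophil-like cells, so the ranges overlapped. With TMM factors, which centre the fold changes of all genes near 0, Fcgr3 was lower in monocyte-like cells (-1.09 ± 0.07, adjusted p = 3.09e-09, edgeR), and so was Fcer1g (-0.77 ± 0.05, adjusted p = 2.04e-09). With library totals alone the median of all genes moved to 1.17, Fcgr3 to 0.08 (adjusted p = 0.371) and Fcer1g to 0.40 (adjusted p = 1.39e-05), both edgeR. Counted per cell, monocyte-like cells held 1.503 ± 0.311 Fcgr3 UMIs and 22.2 ± 2.94 Fcer1g UMIs, and neutrophil-like cells 0.902 ± 0.141 and 10.7 ± 1.005. In the fit with TMM factors, 6 of 6 tested receptors were called, 2 higher and 4 lower, against 76.5% of 11293 genes (37.7% higher, 38.8% lower), so most genes were called. The sixth was Fcmr (-1.08 ± 0.22, adjusted p = 0.000383, edgeR), whose UMIs in both classes equalled the free RNA (0.957 times the expected level in neutrophil-like cells and 0.978 in monocyte-like cells, as medians). Higher genes made up 4256 of 8641 calls with TMM and 8828 of 10148 with totals alone.

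Fcgr3 and Fcgr2b were counted in GMP-like cells, and Fcgr1 stood far below its level in monocyte-like cells. Fcgr3 was 1.36 ± 0.170, Fcgr2b 0.627 ± 0.0632, Fcgr4 0.0727 ± 0.0163 and Fcgr1 0.0223 ± 0.0106 in GMP-like cells (n = 5). With clusters formed at a resolution of 1.2 in place of 0.6, Fcgr1 was 0.0757 and Fcer1g 14.5 in this class. Its neutrophil markers summed to 675 to 1153 per 10000 UMIs, no free RNA level was computed for it, and the part of free RNA in these levels was not tested. From GMP-like to monocyte-like cells Fcgr1 rose by a log2 fold change of 3.74 ± 0.20 (adjusted p = 3.63e-17, edgeR), Fcer1g by 1.59 ± 0.05 (4.64e-22), Fcgr2b by 0.50 ± 0.08 (1.67e-06) and Fcgr3 by 0.45 ± 0.06 (3.02e-07). Each of these 4 was higher in 5 of 5 libraries. Fcgr4 showed a log2 fold change of 0.01 ± 0.20 (adjusted p = 0.966, edgeR) and was higher in 3 of 5. Thus 4 of 5 tested receptors were called, all higher, against 64.8% of 10174 genes (32.4% higher). Of all calls, 3301 of 6597 were higher with TMM factors and 4046 of 6680 with totals alone.

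Most of the listed signalling genes that act below these receptors were higher in the same comparison, and most of the associated chains were not. Of 18 genes of activating signalling, 13 were higher in monocyte-like than in GMP-like cells, none was lower, 3 did not pass and 2 could not be tested, with a median log2 fold change of 0.95 over those tested against -0.0012 over all genes. Fgr (2.74 ± 0.11) and Lyn (1.91 ± 0.08), kinases that phosphorylate the receptor motifs, led the list. All 7 inhibitory genes were higher too, among them Csk (0.99 ± 0.09), Ptpn6, which encodes the phosphatase SHP-1 (0.92 ± 0.06), and Inpp5d, which encodes SHIP1 (0.64 ± 0.10). Of 6 associated chains and adapters 1 was higher, Tyrobp (1.54 ± 0.06), 3 were lower, Ms4a2 (-2.86 ± 0.59), Cd79b (-0.60 ± 0.11) and Hcst (-0.47 ± 0.07), 1 did not pass and 1 could not be tested. Ms4a2 (0.00303 against 0.0223 per 10000 UMIs) and Cd79b (0.252 against 0.346) were low in both classes, and the part of free RNA in them was not tested. Against neutrophil-like cells, 3 activating genes were higher, 10 were lower and 5 did not pass in monocyte-like cells with TMM factors, against 37.7% higher and 38.8% lower of all genes. These directions depend on the scaling too: Fgr, counted as lower, was 0.934 per 10000 UMIs in monocyte-like and 0.887 in neutrophil-like cells. The adapter Lat2 (2.88 ± 0.09) was the first of the higher genes, and among associated chains Hcst was far lower (1.08 against 4.33 per 10000 UMIs; -3.18 ± 0.07). Fcgrt, the neonatal Fc receptor that recycles IgG, was higher in monocyte-like cells than in neutrophil-like cells (0.436 against 0.0184; 3.42 ± 0.13).

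Along the neutrophil lineage clusters, the levels of Fcgr2b and Fcgr3 both declined over the first 3 and parted after that. The clusters were ordered by textbook granule genes, from the primary granule genes Elane and Ctsg through Fcnb, Ltf and Ngp to Retnlg, Mmp8 and Stfa2l1. The pooled Fcgr3 level was 1.89, 1.07, 0.879, 1.68, 3.02 and 4.11 per 10000 UMIs over the 6 clusters. Fcgr2b was 0.670, 0.559, 0.433, 0.257, 0.155 and 0.1296, and Fcgr4 was 0.0558, 0.137, 0.203, 0.436, 0.775 and 0.940. Fcgr3 thus dipped and then climbed, Fcgr2b declined and Fcgr4 climbed throughout. Between the Fcnb and Orm1 cluster and the Stfa2l1 and Gm5483 cluster, Fcgr3 was 4.39 to 5.51 times higher, Fcgr4 3.57 to 5.15 times and Fcer1g 2.04 to 2.23 times in each of the 5 libraries, and Fcgr2b stood at 0.223 to 0.381 of its earlier level. These are descriptions without a test.

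**Figure D2:**
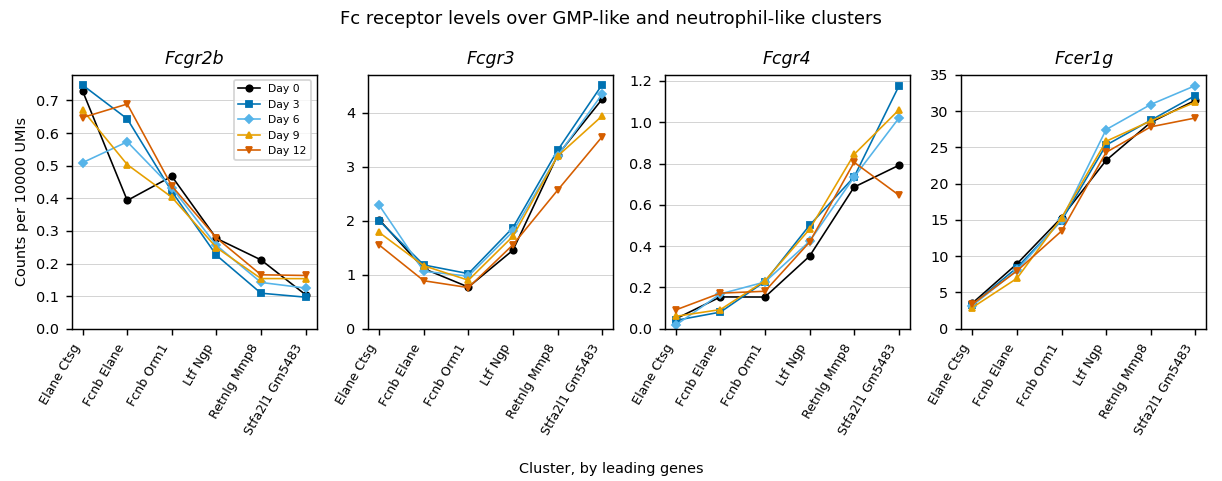
Counts per 10000 UMIs of Fcgr2b, Fcgr3, Fcgr4 and Fcer1g over 6 clusters of the neutrophil lineage, ordered from Elane and Ctsg to Stfa2l1 and Gm5483, with 1 line per library. The lines of the 5 libraries ran together, with Fcgr2b falling from 0.509 to 0.747 in the first cluster to 0.0967 to 0.163 in the last.

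The same courses looked different per cell, because the median total fell from 10840 UMIs in the Fcnb and Orm1 cluster to 1912 in the Stfa2l1 cluster. Cells of these clusters held 0.980 and 0.883 Fcgr3 UMIs and 0.226 and 0.202 Fcgr4 UMIs on average, so that neither count rose per cell. Fcgr2b dropped from 0.483 to 0.0278 UMIs and Fcer1g from 16.5 to 6.76. The share of cells with an Fcgr3 UMI was 54.3% and 53.7%, and at 500 UMIs per cell it was 4.97% and 17.8%. Between these clusters the decline of Fcgr2b was therefore seen on both scales. The climb of Fcgr3, Fcgr4 and Fcer1g between them was seen only relative to the shrinking total. Counts per cell are not given here for the clusters before the Fcnb and Orm1 cluster.

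The ratio of Fcgr2b to Fcgr3 UMIs, counted in the same cells and free of the total, was lower in neutrophil-like cells than in the other myeloid classes. Its mean was 0.148 ± 0.0291 in neutrophil-like, 0.479 ± 0.0604 in monocyte-like, 0.470 ± 0.103 in GMP-like and 0.440 ± 0.0172 in nonclassical monocyte-like cells, and the ranges of the last 3 over libraries overlapped. It varied more between libraries in T-like (0.268 ± 0.0779), NK-like (0.310 ± 0.194) and early progenitor-like cells (0.583 ± 0.355), and the NK-like and early progenitor-like ranges overlapped that of neutrophil-like cells. Over the neutrophil lineage it went from 0.498 ± 0.0870 in the Fcnb and Orm1 cluster to 0.0319 ± 0.0103 in the Stfa2l1 cluster. In mature B-like (2.50 ± 1.01), pro/pre-B-like (1.54 ± 0.494) and plasmacytoid dendritic-like cells (1.40 ± 0.471) the mean ratio was above 1, though plasmacytoid dendritic-like cells of Day 0 held 10 Fcgr2b and 12 Fcgr3 UMIs. In these 3 classes Fcgr3 itself stood at only 1.31, 1.13 and 1.14 times the free RNA level.

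Clusters within the monocyte pool differed in the same receptors. An unnamed cluster of 186 cells led by the interferon-induced genes Ifit3, Cxcl10 and Ifit1 held 2.60, 3.06, 2.84, 2.49 and 2.83 Fcgr1 per 10000 UMIs on Days 0 to 12, against 0.430 to 0.826 in the cluster led by F13a1 and Fn1. It was 3.71 to 6.61 times higher in 5 of 5 libraries, and Fcgr1 was among its 10 leading genes. Fcgr4 was also higher there, by 3.37 to 14.8 times in 5 of 5 libraries. A second unnamed cluster, of 387 cells and led by Cd209a and the MHC class II genes H2-Aa and H2-Ab1, held more Fcgr2b (1.87 to 2.68 against 0.940 to 1.29) and less Fcgr3 (1.203 to 1.39 against 2.44 to 2.73) in 5 of 5 libraries. Its Fcgr2b to Fcgr3 ratio was 1.78 ± 0.170 against 0.414 ± 0.0463. In the dividing cluster led by Kpna2 and Mxd3, Fcgr1, Fcgr2b, Fcgr3, Fcgr4 and Fcer1g all stood below the F13a1 and Fn1 cluster in 5 of 5 libraries. The 35 macrophage-like cells, marked by C1qa, C1qb and C1qc, held 16 Fcgr1 UMIs (1.43 per 10000, exact Poisson 95% interval 0.819 to 2.33) and 37.8 Fcer1g per 10000.

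B cells carried Fcmr, Fcer2a and Fcgr2b, each higher in mature B-like than in pro/pre-B-like cells. Fcmr was 5.34, 6.18, 4.95, 4.93 and 4.67 in mature B-like cells of Days 0, 3, 6, 9 and 12 and 0.309, 0.113, 0.375, 0.395 and 0.214 in pro/pre-B-like cells. Fcer2a was 2.01, 1.02, 1.47, 1.38 and 2.51 in mature B-like cells, on 665 UMIs, and pro/pre-B-like cells held 9 UMIs in all. Fcgr2b was 0.865, 0.584, 0.761, 0.719 and 0.406 against 0.283, 0.278, 0.316, 0.302 and 0.245. None of the 3 pairs of groups overlapped. The log2 fold changes were 7.01 ± 0.29 for Fcer2a (adjusted p = 9.72e-16, edgeR), 4.35 ± 0.21 for Fcmr (1.42e-14) and 1.35 ± 0.16 for Fcgr2b (2.35e-07).

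Fcer1g (0.48 ± 0.12, adjusted p = 0.00133, edgeR) and Fcgr3 (0.61 ± 0.21, adjusted p = 0.0165) were called in the same direction, but both stood near the free RNA level in these cells. The neutrophil markers summed to 231 to 370 per 10000 UMIs in mature B-like and 206 to 248 in pro/pre-B-like cells, and their part in these calls was not tested. The Fcgr3 call was lost in edgeR without Day 0 (adjusted p = 0.0590) or Day 6 (0.0586) and with DESeq2 (0.0549). All 5 tested receptors were called higher, against 48.3% of 8776 genes (20.8% higher). Fcer2a held 9 UMIs in pro/pre-B-like cells and entered the test through its mature B-like counts, so its direction in this tally was fixed in advance. Fcmr was seen in 50.1% of mature B-like cells (median 1614 UMIs per cell) and 0.864% of neutrophil-like cells (median 3289), and Fcer2a in 23.2% and 0.266%. In neutrophil-like cells both stood at the free RNA level, at medians of 0.957 and 1.17 times the expected one.

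The B-lineage clusters placed these receptors at different points. Pooled over libraries, Fcmr was 0.0924 per 10000 UMIs in the Vpreb1 and Dntt cluster, 0.279 in the Myl4 cluster, 0.944 in the Rag1 cluster and 5.39 in the Ms4a1 cluster. Fcer2a was still 0.0103 in the Rag1 cluster and 0.437 in the Ms4a1 cluster, and reached 2.34 in the cluster led by Ighd, the IgD heavy chain of naive B cells, where Fcer2a itself was the next leading gene. Fcmr thus stood high in the Ms4a1 cluster already, whereas Fcer2a was 4.13 to 6.41 times higher again in the Ighd cluster in 4 of 4 libraries. Fcgr2b moved over a narrower span, from 0.172 in the Vpreb1 and Dntt cluster to 0.772 in the Ighd cluster.

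**Figure D3:**
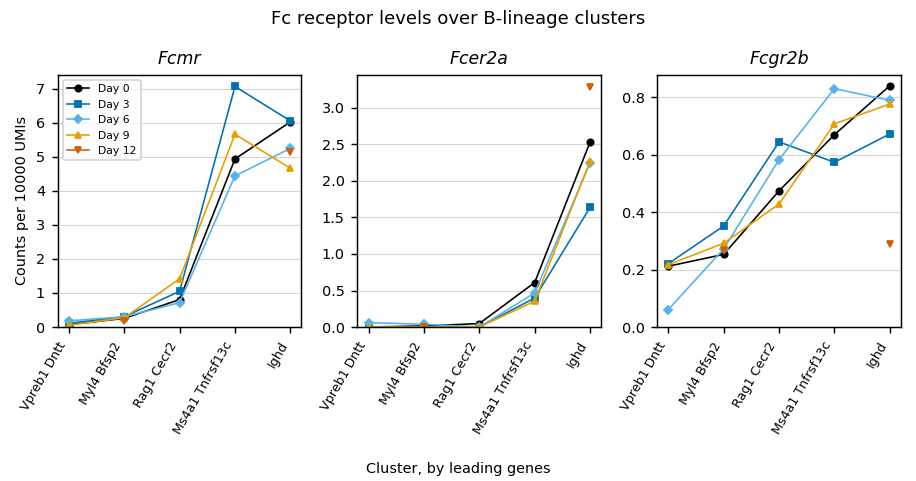
Counts per 10000 UMIs of Fcmr, Fcer2a and Fcgr2b over 5 B-lineage clusters, named by leading genes, with 1 line per library and only clusters of at least 20 cells drawn. Fcmr rose between the Rag1 and the Ms4a1 cluster and Fcer2a between the Ms4a1 and the Ighd cluster, where the 5 libraries lay between 1.64 and 3.29.

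Of 9 other Fc-binding and Fc receptor-like genes, 3 were higher in mature B-like than in pro/pre-B-like cells, 1 was lower and 5 could not be tested. Fcrl1, an Fc receptor-like protein of mature B cells, was 1.31 against 0.0633 per 10000 UMIs (log2 fold change 4.32 ± 0.21, adjusted p = 1.58e-14, edgeR), Fcgrt rose by 2.85 ± 0.47 and the intracellular Fcrla by 0.66 ± 0.18. Fcrl6 held 51 UMIs in pro/pre-B-like cells and 0 in mature B-like cells and was the 1 gene of this list that fell. It entered the test through its pro/pre-B-like counts, so its direction was fixed in advance. Of the 18 activating genes 10 were higher, led by Lat2 (3.43 ± 0.20), and 4 were lower, among them Zap70 (-2.55 ± 0.66) and Lat (-2.46 ± 0.33), which serve the T cell receptor. Of the rest 3 did not pass and 1 could not be tested, and of all genes 20.8% were higher and 27.5% lower. Ptpn6 (1.52 ± 0.13), Cbl (0.88 ± 0.17) and Csk (0.46 ± 0.12) rose among the 7 inhibitory genes, and the other 4 did not pass.

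Fcer1a was found in basophil or mast-like cells and almost nowhere else. This cluster held 61 cells over the 5 libraries, with 9 of 9 markers, and only Day 9 had 20 or more (27 cells). Pooled, Fcer1a gave 195 UMIs, or 3.85 per 10000 (exact Poisson 95% interval 3.33 to 4.43), in 36 of 61 cells (59.0%, exact binomial 95% interval 45.7% to 71.5%). By library the UMIs were 1, 52, 34, 106 and 2 in 4, 11, 15, 27 and 4 cells. Mature B-like, T-like and NK-like cells held 0 UMIs, which allows a level of up to 0.00720, 0.00636 and 0.0224 (3 UMIs over the class), and early progenitor-like cells held 7 UMIs in 3 cells. The same 61 cells held Fcgr3 at 2.69 (2.26 to 3.18), Fcer1g at 12.3 (11.3 to 13.3) and Fcgr2b at 0.632 (0.433 to 0.893), so the partner chain and the inhibitory receptor were counted beside Fcer1a, with no test because 1 library had enough cells.

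**Figure D4:**
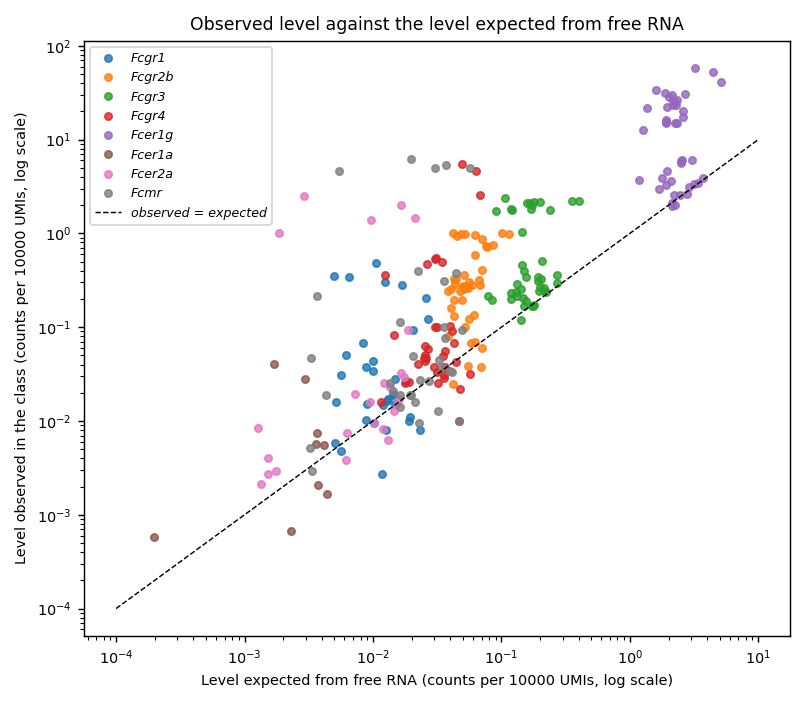
Level of each Fc receptor observed in a class against the level expected from free RNA, both in counts per 10000 UMIs on log scales, with 1 point per class and library for classes with at least 3 libraries outside the GMP-like cells. Points on the dashed line equal the expectation, as for Fcer1g in B-lineage cells, 266 points are drawn, and 78 with no UMI are left out.

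Across days there was 1 mouse each, so no test was possible and intervals cover counting error only. A level 1.5 times or more from Day 0, in classes with at least 20 cells and genes with at least 20 UMIs in either library, was found for 22 of 127 combinations of receptor, class and later day (17.3%), 12 higher and 10 lower. Over all genes the same rule gave 20.8%. By day the counts were 7 of 33, 7 of 33, 4 of 33 and 4 of 28 on Days 3, 6, 9 and 12, against 22.5%, 19.9%, 21.5% and 18.9% of all genes. In 4 of the 22 the counting interval lay wholly beyond 1.5 times, and the share of all genes that meet this stricter rule was not computed.

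These 4 were Fcgr1 in neutrophil-like cells on Day 6, which was higher, and Fcmr in neutrophil-like cells on Day 12, Fcmr in pro/pre-B-like cells on Day 3 and Fcer1g in NK-like cells on Day 3, which were lower. Both changes in neutrophil-like cells were at the level of free RNA. Fcmr in pro/pre-B-like cells was 0.367 of the Day 0 level on Day 3 (interval 0.229 to 0.589). That library alone held a cluster led by Myl10 and Cdkn2a, 41.2% of its pro/pre-B-like cells, and without this cluster its Fcmr level was 0.376 in place of 0.113, against 0.309 on Day 0. Fcer2a in mature B-like cells was 0.507 of its Day 0 level on Day 3 (0.371 to 0.682), and its level in the Ighd cluster alone was 2.53 on Day 0 and 1.64 on Day 3.

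In NK-like cells Fcer1g was 0.580 of the Day 0 level on Day 3 (0.508 to 0.661), but within the cluster led by Gzma and Klra8 it was 28.2, 24.3, 24.4, 24.2 and 29.2 per 10000 UMIs on Days 0 to 12. That cluster made up 96.1% of NK-like cells on Day 0 and 63.6% on Day 3, while the cluster led by Tnni1 and Klri2 held the rest, with a pooled Fcer1g level of 10.4 against 26.3. Fcgr3 of NK-like cells stood below Day 0 on all 4 later days, at 0.332 to 0.491 of it, on 27 UMIs at Day 0 and 9 to 18 afterwards. Within the Gzma and Klra8 cluster its levels were 1.09, 0.660, 0.466, 0.616 and 0.533, again highest on Day 0, although each interval overlapped that of Day 0. In monocyte-like cells Fcgr2b was between 0.941 and 0.998 on all 5 days, and Fcgr3 was 0.768 and 0.754 of its Day 0 level on Days 9 and 12. The cluster led by Ccl2 and Atf3 made up 39.0% of these cells on Day 0, 23.8% on Day 12 and 0.585% to 0.976% on the other days. Without it the Day 0 levels were 0.254 in place of 0.339 for Fcgr1, 2.05 in place of 2.39 for Fcgr3 and 0.975 in place of 0.997 for Fcgr2b. The Day 12 levels without it were 0.326 in place of 0.354 for Fcgr1, 1.66 in place of 1.80 for Fcgr3 and 0.941 in place of 0.998 for Fcgr2b. Fcgr3 was thus lower on Day 12 than on Day 0 with and without this cluster.

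**Figure D5:**
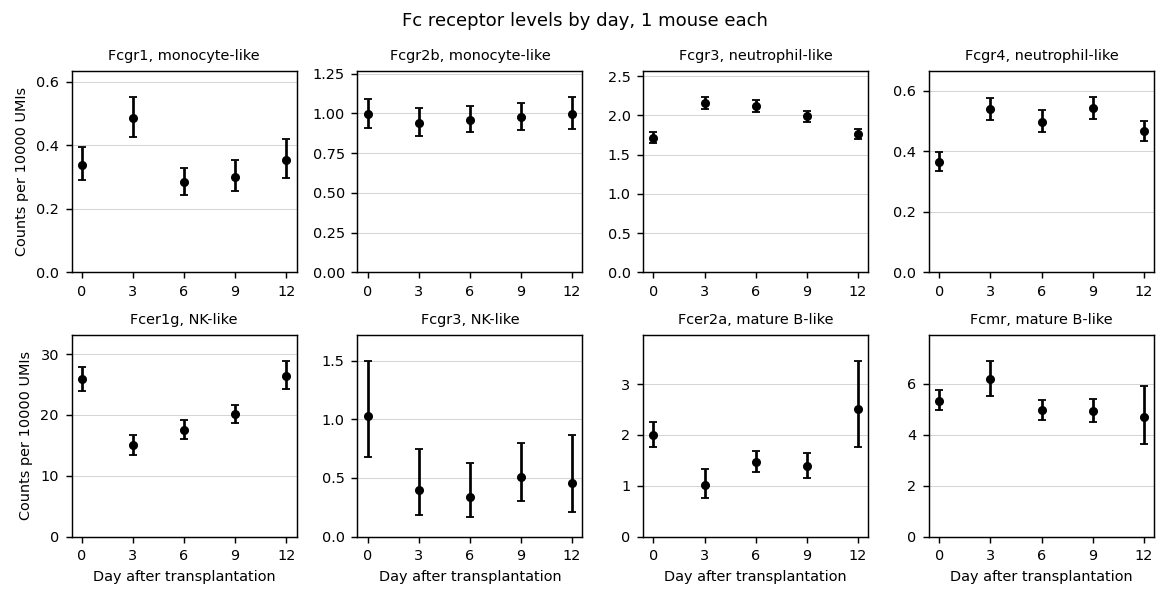
Counts per 10000 UMIs by day after transplantation (days 0, 3, 6, 9 and 12) for 8 pairs of receptor and class, 1 mouse per point, with exact Poisson 95% intervals and axes from 0. Fcgr2b in monocyte-like cells stayed between 0.941 and 0.998, and Fcgr3 in NK-like cells went from 1.03 on Day 0 to between 0.341 and 0.504 later.

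The genes whose levels ran most like those of each receptor were found by Pearson's r of log2(counts per 10000 UMIs + 0.1) over 52 class and library sums of 14 classes, among 10550 genes. The points share libraries and differ in depth, so r is a description. For Fcgr1 they were Galnt9 (r = 0.930), Naaa and Ccdc109b, for Fcgr2b Napsa (0.830) and Nuak2, for Fcgr3 Igsf6 (0.923), Gsr and Msrb1, and for Fcgr4 Cd300ld (0.944), Treml4 and Ear2. Fcer1g ran with Tyrobp (0.964), Anxa2 and Myo1f. Fcer1a ran with Ms4a2, the beta chain of its own receptor (0.974), Csrp3 and the mast cell and basophil protease Prss34. Basophil or mast-like cells gave only 1 of the 52 points (Day 9), with Fcer1a at 4.77 per 10000 UMIs. No other point exceeded 0.0408, so these r values rest on that 1 point. Fcer2a ran with Cr2, the complement receptor CD21 of B cells (0.975), Bank1 and Trim7, and Fcmr with Ms4a1, which encodes CD20 (0.986), 2010309G21Rik and Cd22. Of the genes named here, Treml4, Ear2, Prss34, Cr2, Bank1 and Ms4a1 were also markers by which the classes were named. Their r is therefore not independent of the naming. Naaa was on the marker list of conventional dendritic cells, a type that named no class here. Among the receptors themselves the closest pair was Fcer2a and Fcmr (0.920), before Fcgr3 and Fcer1g (0.738).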

How the data were processed

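Single bone marrow cells of 5 mice, 1 per day, were sequenced with 10x Genomics 3' v2 chemistry. Per the labels the deposited values are raw UMI counts per gene and barcode, which the authors made with Cell Ranger on mm10; the annotation release is not given in the sources used here. Every barcode of 500 or more UMIs was kept. Cells were log-normalised, and genes variable in at least 2 libraries, without the Fc receptor and signalling lists, gave 20 principal components for Leiden clustering at a resolution of 0.6 (scanpy 1.11.5, leidenalg 0.10.2). Monocyte, B, T and NK, and progenitor pools were clustered again. A name required 3 or more markers of a cell type in 20% of a cluster's cells at 2 times the mean of other clusters. No name was given if a different type had more of its markers among the 10 leading genes, if none of these was a marker and either under 50% of the list was seen or UMI counts were low, or if the type lay outside the pool. Scrublet, run through scanpy, marked 158, 1, 0, 1 and 2 cells of the 5 libraries by its own threshold, which did not work for most of them, so the 5% with the highest scores per library were marked and clusters of over 50% marked cells were left unnamed. The pools, naming details and this share were set after seeing the data.

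Levels were summed counts per 10000 UMIs with exact Poisson 95% intervals, and shares of cells had exact binomial intervals. Both cover counting error only, and a count of 0 was given a limit of 3 UMIs over the class. Free RNA was read in barcodes of at most 100 UMIs and scaled by neutrophil genes, or by B cell genes in neutrophil-like cells. Classes of the same mice were compared with edgeR 4.0.16 (quasi-likelihood test, TMM, Benjamini-Hochberg over all genes tested, called at 0.05) on counts summed per class and library of at least 20 cells, with the library as a block. These p-values measure the spread between 5 mice that also differed in day, and since classes were formed from other genes of the same cells, they are no test of the classes themselves. The fit was tested on simulated data. DESeq2 1.42.0, other scalings, filters and cell sets were tried as alternatives, and those without the cluster led by Myl10 and Cdkn2a or the one led by Ccl2 and Atf3 were added after seeing the data. A mitochondrial limit, set here at 3 median absolute deviations where the study's methods name the mean absolute deviation, took out 518 to 1194 cells per library and was 1 of the alternatives.

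Named were the 8 receptors in every class and comparison, up to 6 called genes per signalling list and comparison with the largest fold change, the 3 most similar genes per receptor and the leading genes of clusters, except for 1 gene that is not reported here. The members and lists were chosen with earlier results of these data known.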

Additional observations from a re-analysis of the deposited data

How the results depend on the processing

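With all libraries, 207 recomputed fold changes of a receptor between classes kept their side of the threshold and, where called, their direction. Another 3 lost their call and 3 turned direction. Direction was not compared where neither fit called the gene. With library totals alone, monocyte-like minus neutrophil-like cells turned direction for Fcgr3 (0.0776), Fcer1g (0.404) and Fcmr (0.0609), while the median of all genes moved to 1.17. With a library left out 102 were unchanged by the same rule and 3 lost their call. These 3 were Fcgr3 between NK-like and T-like cells without Day 0 and between the B-lineage classes without Day 0 or Day 6. DESeq2 called 775 genes in place of 1321 between NK-like and T-like cells, with 1 receptor in place of 2, and 580 in place of 1223 between nonclassical and monocyte-like cells. With a library left out the NK-like comparison called 1 to 2 receptors, the lower count without Day 0, and the nonclassical one 555 to 754 genes, all below the full count. The cause was not tested. Levels moved in 19 cases and stayed in 533, where a move is a change above the SD between libraries, and 10 of the moves came with a mean over cells, such as Fcgr3 in neutrophil-like cells (2.60). At a resolution of 1.2 Fcer1g in GMP-like cells was 14.5 and Fcmr in pro/pre-B-like cells 0.154. No cluster was named nonclassical monocyte-like at that resolution, so this class was not recovered and its comparison could not be run. Ace and Adgre4 were there among the leading genes of an unnamed cluster of 510 cells, together with Cd209a and H2-Aa. Shares of cells at 500 UMIs moved at 1000 UMIs in 51 cases and stayed in 29. No paired analysis was possible because the days share only the replicate number 1, each day being 1 mouse. Between classes the library already was the block, and without it Fcmr between monocyte-like and neutrophil-like cells lost its call (-1.004, adjusted p = 0.0779, edgeR). The numbers of cells in the small classes, such as the 116 nonclassical monocyte-like cells, limit what could be detected.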

Other observations

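Classes with under 3 libraries of 20 cells also held Fc receptor UMIs. The 36 plasma-like cells held 20 Fcmr UMIs (0.396 per 10000, exact Poisson 95% interval 0.242 to 0.612), in 8 cells, and 18 Fcgr2b UMIs (0.357, 0.211 to 0.564). The 60 stromal or endothelial-like cells held Fcgr3 at 0.760 and Fcer1g at 9.45. In Day 9, the only library with enough of these cells, their neutrophil markers summed to 1885 per 10000 UMIs, and the receptors stood at 0.758 and 0.542 times the level expected from free RNA. The 86 erythroid-like cells held Fcer1g at 5.51, and in Day 9 at 1.13 times that expectation. In the neutrophil cluster led by the interferon-induced genes Ifit3b and Rsad2 (773 cells), Fcgr3 was 3.03 to 4.57 per 10000 UMIs and exceeded the Stfa2l1 cluster in 1 of 5 libraries.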
